A study of Mus musculus with 8 samples.

Results

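Interferon-stimulated genes are the genes that cells switch on when they sense interferon, a secreted warning signal. The 37 genes described here were chosen by symbol, as known members of that response. Of these, 36 were found among the 32285 genes of the count files; Mx2 was not found under that symbol and is not analysed here. Their levels were measured in single leukocytes from a major salivary gland of the mouse, the submandibular, and from its draining lymph nodes. Cells carrying CD45, the common surface protein of leukocytes, were sorted from mice of around 12 weeks, 4 of them SS and 4 of them controls; what SS stands for, the strain and any allele or agent go unstated in the labels. There were 4 expression libraries, 1 for each pair of genotype and tissue, beside 4 T cell receptor libraries not analysed here. The gland was digested with collagenase at 37 °C for 20 minutes and the lymph nodes were only triturated. The files name the expression libraries C1, C2, C3 and C4, and no label or header ties any of them to a genotype or tissue. No comparison of SS with control or of gland with lymph node was therefore made, no group has a replicate, and no p-value is given. Intervals are exact 95% intervals and cover counting error only.

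Type I interferons bind 1 receptor on nearly every nucleated cell, and the kinases Jak1 and Tyk2 on it then switch on Stat2. Stat2 and Irf9 belong to a complex that binds the interferon-stimulated response element in front of its target genes. Interferon gamma, made mainly by T cells and NK cells, acts through another receptor, and many genes respond to both signals. In salivary glands with autoimmune inflammation, both responses are known as hallmarks of the disease. The products of these genes sense foreign nucleic acid, block viral entry, copying and release, and tune the signal itself.

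The response element gives the members a common feature in their DNA. Its core, GAAA followed after any 2 bases by another GAAA (NN between them), was sought on both strands, overlapping matches included, in RefSeq promoter windows of GRCm38.p6 that run from 250 bases before to 50 bases after each gene's start. Of the 36 members, 28 were matched in that table and 14 of these held the core, against 1079 of all 27025 genes (3.99%). Among the interferon gamma targets used below for comparison, 10 of 16 held it. The sequences shown are those with the core nearest the start in each role group that had one (Ifitm3 and Trim30a were at the same distance, and Ifitm3 is shown), because they show where the element sits and how its copies overlap. They lie at Isg15 at chr4:156200789-156201068 on the reverse strand, Ifit1 at chr19:34640639-34640918 on the forward strand, Oas1a at chr5:120907496-120907775 on the reverse strand, Ddx58 at chr4:40239796-40240075 on the reverse strand, Stat2 at chr10:128270248-128270527 on the forward strand, Ifitm3 at chr7:141010715-141010994 on the reverse strand and Slfn5 at chr11:82951852-82952131 on the forward strand, each printed 5′ to 3′ along the gene from 250 bases before its start to 30 after it, with the core matches in capitals.
Isg15: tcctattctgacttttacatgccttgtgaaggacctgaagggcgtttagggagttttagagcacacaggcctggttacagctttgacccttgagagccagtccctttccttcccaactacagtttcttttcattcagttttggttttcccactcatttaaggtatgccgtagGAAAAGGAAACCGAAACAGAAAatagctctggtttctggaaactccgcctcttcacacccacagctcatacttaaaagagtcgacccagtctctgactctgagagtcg
Ifit1: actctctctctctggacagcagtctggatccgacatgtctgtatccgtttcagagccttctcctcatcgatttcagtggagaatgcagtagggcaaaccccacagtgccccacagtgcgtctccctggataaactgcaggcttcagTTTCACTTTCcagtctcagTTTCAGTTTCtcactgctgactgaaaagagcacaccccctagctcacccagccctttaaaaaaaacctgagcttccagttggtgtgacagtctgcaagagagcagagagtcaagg
Oas1a: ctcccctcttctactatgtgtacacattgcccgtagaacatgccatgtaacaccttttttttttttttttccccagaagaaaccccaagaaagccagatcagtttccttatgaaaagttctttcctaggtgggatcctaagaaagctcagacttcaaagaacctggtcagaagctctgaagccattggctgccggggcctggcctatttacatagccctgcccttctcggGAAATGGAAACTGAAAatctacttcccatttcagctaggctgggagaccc
Ddx58: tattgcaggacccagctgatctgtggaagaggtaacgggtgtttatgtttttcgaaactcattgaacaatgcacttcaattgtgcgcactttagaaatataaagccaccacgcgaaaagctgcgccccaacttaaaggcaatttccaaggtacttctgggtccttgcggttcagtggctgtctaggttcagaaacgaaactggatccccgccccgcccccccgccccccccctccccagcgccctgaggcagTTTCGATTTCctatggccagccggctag
Stat2: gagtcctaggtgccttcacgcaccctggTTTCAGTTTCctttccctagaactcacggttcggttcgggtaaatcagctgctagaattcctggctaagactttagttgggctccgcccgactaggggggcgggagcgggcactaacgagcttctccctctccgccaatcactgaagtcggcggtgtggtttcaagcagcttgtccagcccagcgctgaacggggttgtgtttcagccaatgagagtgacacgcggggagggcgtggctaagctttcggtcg
Ifitm3: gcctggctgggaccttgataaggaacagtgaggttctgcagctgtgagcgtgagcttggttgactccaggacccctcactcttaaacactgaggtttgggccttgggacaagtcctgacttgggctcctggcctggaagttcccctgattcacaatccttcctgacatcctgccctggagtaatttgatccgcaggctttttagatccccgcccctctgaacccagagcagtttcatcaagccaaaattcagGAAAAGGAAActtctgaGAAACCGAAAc
Slfn5: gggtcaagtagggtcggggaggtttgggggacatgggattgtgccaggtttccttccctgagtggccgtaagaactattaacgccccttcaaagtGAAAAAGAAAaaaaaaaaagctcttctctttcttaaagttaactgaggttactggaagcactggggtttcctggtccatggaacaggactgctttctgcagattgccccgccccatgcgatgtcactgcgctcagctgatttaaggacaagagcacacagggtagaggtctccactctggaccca
In Isg15 and Oas1a the copies overlapped into 1 run, with 3 and 2 matches, while Ifit1 held 2 separate copies on the opposite strand. The nearest match began 66 bases before the start in Isg15, 85 in Ifit1, 14 in Oas1a, 155 in Slfn5 and 222 in Stat2. In Ddx58 and Ifitm3 the nearest match began 3 bases after the annotated start. Matches on the opposite strand, as in Ifit1, Ddx58 and Stat2, read TTTC, NN and TTTC in the printed letters. A match describes these letters and is no measured binding site.

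Levels are in CPM, a depth-scaled count: the unique molecular identifiers (UMIs, each 1 captured RNA molecule) of a gene per 1000000 UMIs of the same cell class and library. Barcodes under 500 UMIs or 300 genes, or above 10% mitochondrial UMIs, were left out, so that C1 to C4 kept 5616, 5067, 8532 and 5957, at median depths of 6224.5, 4939, 8076 and 5203 UMIs. Between 31 and 85 barcodes were shared by a pair of libraries, at most 1.43% of either. The classes were named from marker genes after a clustering that left out the interferon genes. T-like barcodes numbered 593, 3267, 7325 and 2980 in C1 to C4, and their 7 T cell markers summed to 5008, 6595, 3829.7 and 4173 CPM. All 7 had UMIs in each library, but in C3 so did all 6 B cell and 8 macrophage markers, at sums of 15.9 and 3.64 CPM. Salivary secretory markers summed to 7319 and 13167 CPM in T-like barcodes of C1 and C2, above the T cell markers, and to 0.126 and 0.369 in C3 and C4. NK-like barcodes numbered 1406 in C1 and 376 in C2, B-like 734 in C3 and 2038 in C4, and macrophage-like 2332 in C1 and 354 in C2; the other libraries held too few of these for a gene-by-gene level, except 60 B-like barcodes in C1. The libraries drew on different clusters: T-like barcodes lay mostly in clusters 9, 3, 0 and 1 in C1 to C4. Free RNA, read from barcodes of 50 to 200 UMIs, carried the summed members at 609.7, 975, 1112 and 1236 CPM in C1 to C4; the C3 and C4 values rest on 344 and 106 UMIs, too few to set gene by gene.

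Summed over the 36 members, T-like barcodes carried 2677 (2622 to 2733), 2510.1 (2488 to 2533), 1604 (1595 to 1614) and 2203 (2182 to 2224) CPM in C1 to C4. The intervals did not overlap, and the order C1, C2, C4, C3 held under each of the 11 alternative settings for this sum. A single gene, Ifi27l2a, supplied 32.1%, 37.8%, 32.6% and 37.9% of those UMIs. A core of 12 strongly inducible members (Isg15, Ifit1, Ifit2, Ifit3, Rsad2, Usp18, Cmpk2, Ifi44, Oasl1, Oas1a, Oas2 and Oas3) had the same order, at 356 (336 to 376), 246 (239 to 254), 146 (143 to 149) and 223 (216 to 229.9) CPM in C1 to C4. Fewer responding cells and less RNA per cell cannot be told apart in such sums. The order between libraries was not that within a shared cluster: cluster 9 held 3181 CPM in C1 and 3339 in C2, and cluster 3 held 2422 in C1 and 2672 in C2, both higher in C2, though the intervals of cluster 9 touched at 3263 and 3264. Cluster 0 held 1137 CPM in C3 and 1517 in C4, whereas cluster 1 held 2394 in C3 and 2139 in C4.

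**Figure D1:**
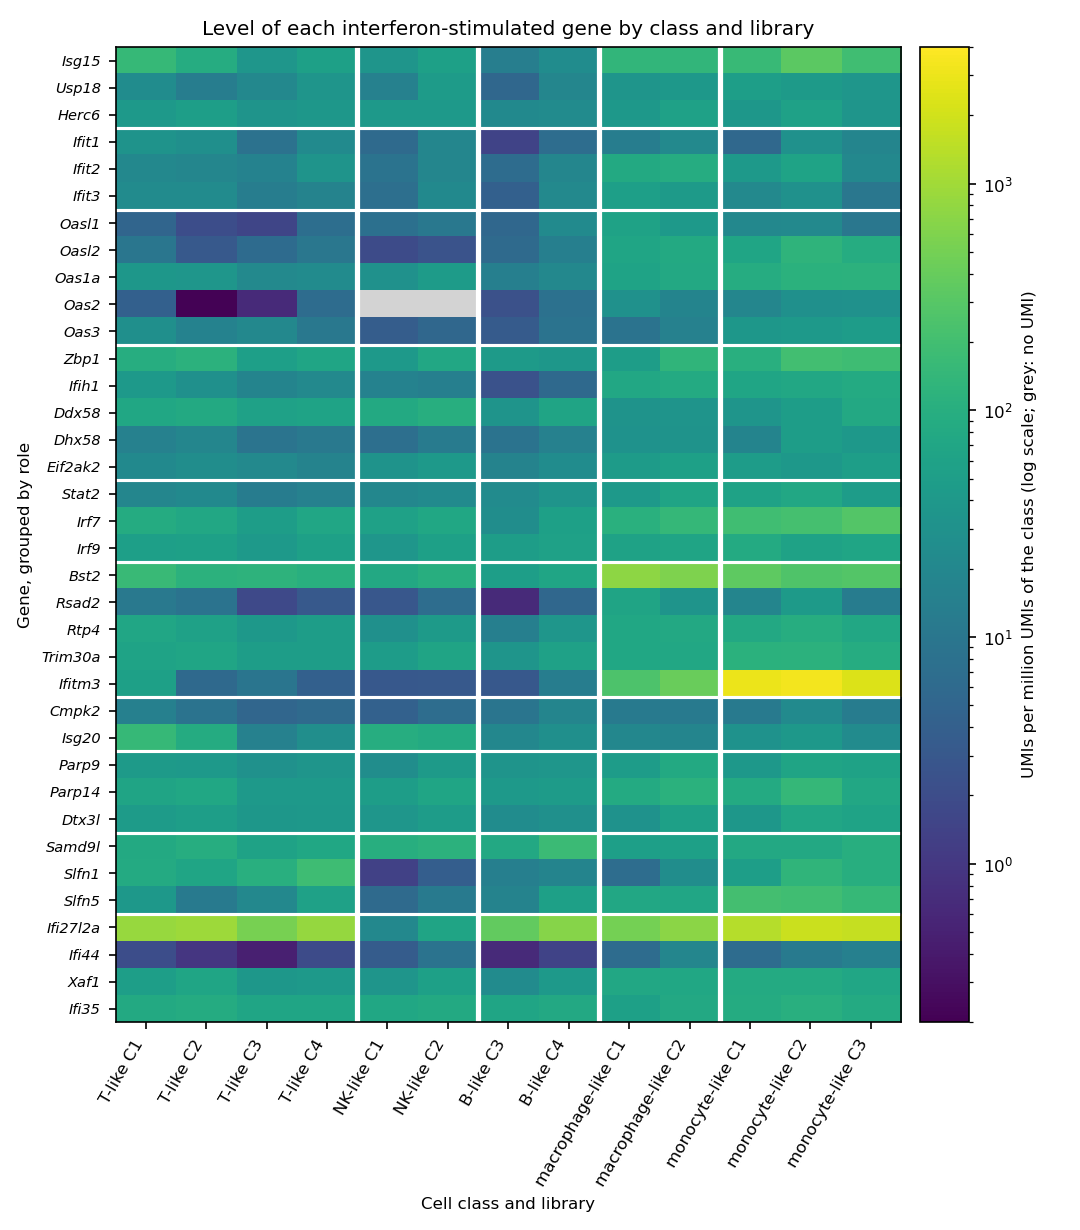
Colour gives the level of each interferon-stimulated gene (rows, grouped by role) in CPM on a log scale, in each class and library with enough barcodes (columns); grey marks no UMI. Ifi27l2a is dimmer in NK-like than in the other classes, Ifitm3 is brightest in monocyte-like barcodes, and Ifit2, Ifit3, Oasl1, Oasl2, Oas1a and Oas2 are brighter in macrophage-like than in T-like barcodes of C1 and C2.

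Gene by gene, 33 members had at least 50 UMIs in the T-like library where they were highest. Of these 22 were lowest in C3, against 35.0% of the 10162 genes with as many UMIs, 15 were highest in C2, against 37.6%, and 11 in C1, against 20.0%. C4 was highest for 7 members, against 28.4%, and C3 for 0, against 14.0%. The highest library was at least 2-fold above the lowest for 15 of 33 members, against 31.3% of genes, and the median of that ratio was 1.82 for members and 1.58 for all genes. Rsad2, Ifi44 and Cmpk2 fell under the 50 UMIs.

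Among the ubiquitin-like modifier genes, Isg15, whose product is linked to other proteins much like ubiquitin, was at 152 (139 to 165), 90.3, 36.4 (35.0 to 38.0) and 55.2 CPM in T-like barcodes of C1 to C4. Its level was 4.16-fold higher in C1 than in C3, and the intervals of the 4 libraries were apart. Usp18, which strips Isg15 from proteins and quiets the interferon receptor, ran in another order, at 24.5, 13.4, 20.2 and 35.5 CPM in C1 to C4. Herc6, the mouse enzyme that attaches Isg15, varied least of the 3, between 33.4 CPM in C3 and 51.7 in C2. The IFIT proteins bind RNA that lacks the host's cap marks. Ifit1 was at 32.3 (26.5 to 39.0), 27.7, 8.35 and 22.6 CPM in C1 to C4, so that C3 stood apart from the other libraries. Ifit2 was highest in C4, at 34.2 CPM, and between 16.4 and 20.6 elsewhere; Ifit3 lay between 13.2 CPM in C3 and 23.8 in C2.

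The OAS enzymes make oligoadenylates that switch on the RNA-cutting enzyme RNase L. Oas1a was in T-like barcodes at 38.0, 35.7, 21.1 and 23.5 CPM in C1 to C4. Oas2 had the widest range of any member there: 4.19 (2.29 to 7.02), 0.210 (0.0572 to 0.537), 0.662 (0.477 to 0.895) and 6.59 (5.49 to 7.85) CPM in C1 to C4. C1 and C4 lay above C2 and C3 without overlap of intervals, and C4 was 31.4-fold above C2, where 4 UMIs were counted among 3267 barcodes. Oasl1, a relative that in mice restrains the making of Irf7, was at 5.08, 2.05, 1.61 and 7.17 CPM, and Oasl2 at 9.87, 3.15, 6.34 and 10.2. Oas3 ran the other way in C4, its lowest library at 10.7 CPM, with 27.8 in C1. Free RNA held Oas2 at 6.95 CPM in C1 and 3.53 in C2, above the T-like level in both, and Oasl2 at 9.01 in C2, above it there. OAS, IFIT, Schlafen and Trim30 genes have near-identical relatives, and the sources used here do not give how reads shared by such copies were counted.

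Of the sensors, Zbp1, which binds left-handed nucleic acid and can start cell death, was at 96.0, 116 (111 to 121), 53.6 (51.8 to 55.4) and 68.8 CPM in T-like barcodes of C1 to C4. Ifih1, a sensor of long double-stranded RNA, was at 40.1, 29.1, 17.7 and 21.4 CPM, a 2.26-fold range. Both were lowest in C3. Ddx58, the RIG-I sensor, was steadier, between 57.5 CPM in C3 and 80.7 in C2, as was the RNA-activated kinase gene Eif2ak2, between 16.6 in C4 and 25.2 in C2; Dhx58, a helicase that tunes both sensors, ran from 9.12 in C3 to 18.5 in C2. Irf7, the factor that drives the interferon alpha genes, was at 88.5, 77.1, 50.4 and 70.0 CPM in C1 to C4. Stat2 and Irf9, both parts of the complex that binds the response element, lay between 12.7 and 22.2 CPM and between 41.0 and 56.3 CPM, both lowest in C3 and highest in C2.

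Bst2, which tethers budding viruses to the cell, was at 163 (149.6 to 177), 115, 121 and 105 CPM in C1 to C4. C1 was apart from the other libraries. Ifitm3, which blocks fusion of viruses with endosomes, was at 55.0 (47.4 to 63.6), 5.88, 9.49 and 4.11 CPM in C1 to C4, 13.4-fold higher in C1 than in C4. Free RNA held it at 37.3 CPM in C1 and at 56.7 in C2, where this was above the T-like level. In C3 its 602 UMIs came from 0.546% of T-like barcodes, and 564 of them from cluster 15. That cluster detected all T cell markers, and its leading genes are Prss34 and Mcpt8, known from basophils, followed by cell division genes. Only 1 of its 224 barcodes in C3 held at least 3 UMIs of Prss34 and Mcpt8, and that barcode had no Ifitm3 UMI. Without cluster 15, a setting chosen after seeing the data, Ifitm3 was at 46.4, 5.40, 0.653 and 2.77 CPM, so that C3 and not C4 was lowest. Rtp4, highest in C1 at 70.6 CPM and lowest in C3 at 38.9, and Trim30a, between 49.0 in C4 and 67.6 in C2, varied by under 2-fold. Rsad2, the antiviral enzyme viperin, was at 11.1, 8.61, 1.81 and 3.16 CPM in C1 to C4.

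Isg20, an exonuclease, was at 153 (140.4 to 167), 89.9 (85.7 to 94.3), 15.6 (14.7 to 16.6) and 26.7 (24.4 to 29.1) CPM in C1 to C4. Its 9.82-fold range separated C1 and C2 from C3 and C4. Cmpk2, a mitochondrial nucleotide kinase, lay between 5.33 CPM in C3 and 14.7 in C1. Parp14, an ADP-ribosyl transferase, was at 64.9, 73.5, 40.7 and 41.9 CPM, and its relative Parp9 and the ubiquitin ligase Dtx3l, which work as a pair, spanned 29.7 to 44.0 and 38.1 to 51.0. All 3 were lowest in C3. The Schlafen genes ran differently: Slfn1, a gene tied to T cell quiescence in mice, was at 85.5, 67.1, 102 and 185 (178 to 191) CPM in C1 to C4. Slfn5 was at 38.6, 11.4, 20.3 and 57.4 (54.0 to 60.9) CPM in C1 to C4, 5.04-fold higher in C4 than in C2. Both were highest in C4 and lowest in C2, unlike most members. Samd9l, which restrains cell growth, ran from 61.0 CPM in C3 to 95.3 in C2.

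Ifi27l2a, a small membrane protein gene, gave the most UMIs of the members in T-like barcodes, at 861 (829 to 893), 949 (936 to 963), 523 (517 to 528) and 836 (823 to 849) CPM in C1 to C4. Xaf1, which promotes apoptosis, and Ifi35 both were highest in C2, at 67.3 and 89.5 CPM, with lowest values of 38.0 in C3 and 67.8 in C4. Ifi44 stayed at or below 2.09 CPM.

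**Figure D2:**
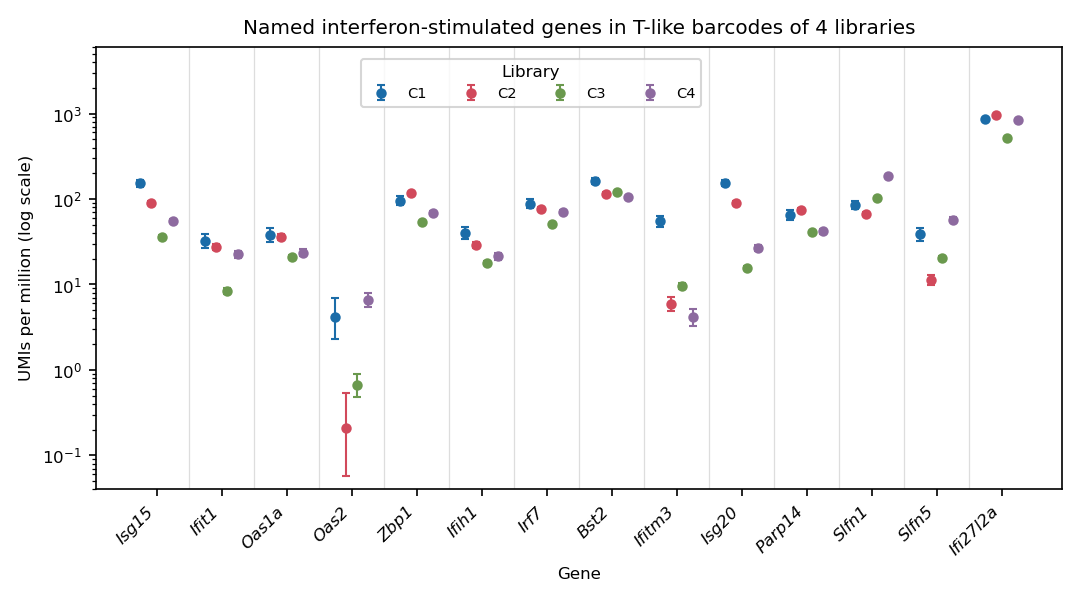
Points give the level in CPM (log scale) of 14 named interferon-stimulated genes in T-like barcodes of each library, with bars for the exact 95% Poisson interval. C3 is lowest for Isg15, Ifit1, Irf7 and Isg20, while Oas2, Slfn1 and Slfn5 are highest in C4 and lowest in C2.

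The gap between T cell lineages lay mostly in Ifi27l2a. Barcodes with Cd4 and without Cd8a or Cd8b1 carried 3221 CPM of the members in C3 (3183 to 3259.8), against 1232 (1223 to 1242) in those with Cd8a or Cd8b1 and without Cd4. Without Ifi27l2a the values were 1300.4 and 1024. CD4 barcodes carried 3092, 2954, 3221 and 2236 CPM of the members in C1 to C4, so that C3 was highest there. CD8 barcodes kept the order of the T-like sums, at 2473, 2350.2, 1232 and 1737. C3 held 5232 CD8 and 1291 CD4 barcodes, and C4 held 365 and 1633. Without Ifi27l2a C3 was lowest in CD4 barcodes too, against 1338 CPM in C4, with overlapping intervals. Ifi27l2a itself was at 1921 CPM in CD4 and 209 in CD8 barcodes of C3, a ratio of 9.21, against 1.63 in C1, 1.76 in C2 and 1.64 in C4. Of 33 members with enough UMIs in C3, 6 were at least 2-fold higher in CD4 barcodes (Isg15, Ifi27l2a, Oas1a, Ifih1, Slfn5 and Isg20), against 12.5% of all genes, and 3 at least 2-fold lower (Ifit3, Usp18 and Ifitm3), against 6.12%. Slfn5 was higher in CD4 barcodes of every library, with ratios of 2.43, 4.90, 4.06 and 1.98 in C1 to C4. In C1, C2 and C4 between 1 and 2 members were at least 2-fold higher in CD4 barcodes, of 22, 31 and 31, against 5.58%, 2.66% and 4.01% of genes. At least 2-fold lower were 0, 1 (Ifit3) and 1 (Oas3), against 1.99%, 3.15% and 2.68%, and in C2 more members were lower than higher, 18 against 13.

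Macrophage-like barcodes carried more of the response than T-like barcodes of the same library, 3218 (3191 to 3244) and 3762 CPM (3703 to 3821) in C1 and C2, with core sums of 566 and 555. This did not hold for every cluster of C1: T-like cluster 9 was at 3181 CPM (3099.9 to 3264). Macrophage-like clusters 4 and 11 were at 3296 (3267 to 3325) and 2833 (2773 to 2893) there. With each library clustered alone, the C1 sums were 3269 CPM in T-like and 3324 in macrophage-like barcodes. In C1, 12 of 35 members were at least 2-fold higher than in T-like barcodes, against 21.5% of all genes, and 5 at least 2-fold lower, against 19.0%. In C2 these were 14 of 35, against 13.2%, and 3, against 24.8%. Oasl1 was at 59.1 and 42.6 CPM in C1 and C2, 11.6-fold and 20.8-fold above T-like barcodes. Oasl2 was at 67.4 and 83.5 CPM, 6.83-fold and 26.5-fold above. Oas2 was at 29.6 and 17.5 CPM, 7.07-fold and 83.5-fold above, the C2 ratio resting on 4 T-like UMIs. T-like levels were below free RNA for Oas2 in both libraries and for Oasl2 in C2. Oasl1, Oasl2 and Oas2 were thus among the 4 members furthest above T-like barcodes in both libraries, joined by Rsad2 in C1, at 64.6 CPM and 5.84-fold, and by Ifitm3 in C2, at 417 CPM and 70.9-fold, where its T-like level was below free RNA. In the other direction stood Slfn1, at 6.79 CPM in C1 and 25.3 in C2, which were 0.0794 and 0.377 of the T-like level, and Isg20, at 0.127 and 0.203 of it; Oas3 and Ifit1 in C1, at 0.318 and 0.410, and Ddx58 and Samd9l in C2, at 0.411 and 0.592, came next. Bst2 gave the most UMIs of the members in C1, at 752 CPM, and was found in 93.2% of macrophage-like barcodes there.

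NK-like barcodes carried a lower sum of the members than T-like and macrophage-like barcodes of the same library, 1062 (1043 to 1082) and 1473 CPM (1431 to 1516) in C1 and C2. Ifi27l2a was at 20.6 and 64.0 CPM, which were 0.0240 and 0.0674 of the T-like level, and supplied 1.94% and 4.34% of the sum. Slfn1 was lower still against T-like barcodes, at 0.0156 and 0.0569 of their level. Without Ifi27l2a the C2 sums were 1409 CPM in NK-like and 1561 in T-like barcodes. The core was at 126 CPM (119.7 to 133) in NK-like barcodes of C1, below the T-like core there. In C2 it was at 246 (229 to 264), and the T-like core was also at 246. In C1, 14 of 31 members were at least 2-fold lower than in T-like barcodes, against 5.97% of all genes, and 0 at least 2-fold higher, against 9.36%. In C2, 1 of 32 members was at least 2-fold higher, against 5.14%, namely Usp18 at 45.5 CPM, and 3 were at least 2-fold lower, against 12.5%. Oas2 had no UMI in either library. The floor of 3 counts set for a count of 0 equals 0.287 CPM in C1 and 0.955 in C2, and is no upper limit. In C1 the members next after Slfn1 and Ifi27l2a were Ifitm3 and Oas3, at 0.0556 and 0.134 of the T-like level, and the highest against T-like barcodes were Oasl1, at 7.64 against 5.08 CPM, and Eif2ak2, Samd9l and Ddx58, with ratios of 1.46, 1.22 and 1.13. Between the libraries, 5 of 25 members were at least 2-fold higher in C2, against 0.785% of genes: Ifit1 (6.21 in C1 and 18.8 CPM in C2), Ifit2 (8.60 and 18.8), Ifit3 (7.55 and 22.3), Usp18 (15.8 and 45.5) and Ifi27l2a. The count was 2 after leaving out the top 5% of doublet scores in each library.

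The summed members were higher in B-like barcodes of C4 than of C3. They came to 1094 CPM in C3 (1068 to 1120.5) and 1860.2 in C4 (1833 to 1888), and the core to 67.4 (61.0 to 74.2) and 175 (167 to 184). Of 35 members with enough UMIs, 15 were at least 2-fold higher in C4, against 3.18% of 9161 genes, and 0 at least 2-fold lower, against 3.81%; 34 of 35 were higher in C4 by any amount, with a median ratio of 1.85 against 1.07 for all genes, though the intervals of some, Parp9 and Herc6 among them, overlapped. The remaining member, Ifi44, had 14 UMIs in C4 and 4 in C3. Against T-like barcodes of the same library, 0 of 33 members were at least 2-fold higher in C3, against 12.0% of genes, and 12 at least 2-fold lower, against 15.5%, led by Ifih1, Slfn1, Oas3 and Ifit1 at 0.138, 0.139, 0.167 and 0.176 of the T-like level. In C4, 5 of 35 were at least 2-fold higher, against 12.5%, namely Oasl1, Ifitm3, Cmpk2, Samd9l and Stat2, and 4 at least 2-fold lower, against 11.3%, namely Slfn1, Ifih1, Ifit1 and Isg15 at 0.0952, 0.275, 0.307 and 0.455. Slfn1, Ifih1 and Ifit1 were thus low in B-like barcodes of both libraries.

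Ifit3 was at 4.09 CPM in C3 (2.65 to 6.04) and 20.8 in C4 within B-like barcodes, a ratio of 5.08. Oasl1 was at 5.40 and 23.3 CPM, a ratio of 4.33, and Slfn5 at 16.7 and 55.6, a ratio of 3.33. Irf7 was at 25.3 and 56.6 CPM and Samd9l at 78.3 and 168. For each of these 5 genes the libraries' intervals were apart. Zbp1 was the exception, at 43.7 CPM in C3 and 37.3 in C4. Within cluster 2, which held most B-like barcodes of both libraries, 12 of 32 members were at least 2-fold higher in C4, against 2.43%, among them Ifit3, at 7.05 and 23.1 CPM, Oasl1, at 8.16 and 27.0, and Slfn5, at 28.9 and 62.9. There 27 of 32 members were higher in C4 and 5 lower, with a median ratio of 1.51 against 1.12 for all genes. The smaller B-like clusters went different ways: the summed members were at 1598 CPM in C3 (1501 to 1699) and 2195 in C4 (2107 to 2285) within cluster 20, but at 748 (716 to 780.5) and 540.0 (498 to 584) within cluster 19. Class values pool UMIs, so deeper barcodes weigh more. In C3 cluster 19 held 160 barcodes at a median depth of 15167.5 UMIs, and cluster 2 held 515 at 4691. In C4 cluster 19 held 83 barcodes at 10461 UMIs, and cluster 2 held 1809 at 3879. The part of this cluster make-up in the class difference was not tested.

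The targets of interferon gamma went the other way from the members in B-like barcodes. A list of 22 such genes, which includes guanylate-binding proteins, immunity-related GTPases and parts of the antigen-processing machinery, had 18 of 19 genes lower in C4 than in C3, with a median ratio of 0.593 against 1.07 for all genes; 5 of the 19 were at least 2-fold lower, against 3.81% of genes, and 8 after leaving out the top 5% of doublet scores or 9 with each library clustered alone. Psmb9, a subunit of the immunoproteasome, was at 406 CPM in C3 (389.9 to 422) and 211 in C4 (202 to 221). Gbp2, a guanylate-binding protein, was at 25.3 and 11.3 CPM. Stat2, a member, was at 23.7 and 34.0 CPM, higher in C4. Within cluster 2 all 17 targets with enough UMIs were lower in C4, with a median ratio of 0.443, and 10 of them at least 2-fold lower, against 0.820% of genes. In cluster 20, 5 of 10 targets were higher and 5 lower in C4, with a median ratio of 0.857 against 1.16 for all genes.

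In macrophage-like barcodes the targets lay further apart between libraries than the members. Between C1 and C2, 3 of 36 members were at least 2-fold higher in C2 (Ifi44, Zbp1 and Slfn1), against 3.80% of 8932 genes, and 0 at least 2-fold lower, against 5.61%; the median ratio was 1.13, against 1.02 for all genes. Isg15 was at 137 CPM in both libraries (131 to 142 and 126 to 149), and Rsad2 was at 64.6 in C1 and 33.8 in C2. Of the 21 interferon gamma targets with enough UMIs, 18 were at least 2-fold higher in C2, with a median ratio of 3.23. Cxcl9, a chemokine that draws T cells, was at 27.2 (24.9 to 29.7) and 1233 CPM (1199 to 1268) in C1 and C2. Gbp2 was at 16.8 and 290.3 CPM. Most macrophage-like barcodes of C1 lay in cluster 4 and most of C2 in cluster 11. Within cluster 11 alone 3 of 35 members were at least 2-fold higher in C2, against 4.36%, while 29 of 35 were higher by any amount, with a median ratio of 1.30 against 0.948 for all genes. Of the targets 15 of 21 were at least 2-fold higher there, with a median ratio of 2.56; Cxcl9 was at 56.5 and 1312 CPM in C1 and C2. The gene for interferon gamma, Ifng, was at 430.0 CPM in T-like barcodes of C1 and 275 in C2, against 32.8 in C3 and 6.38 in C4.

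**Figure D3:**
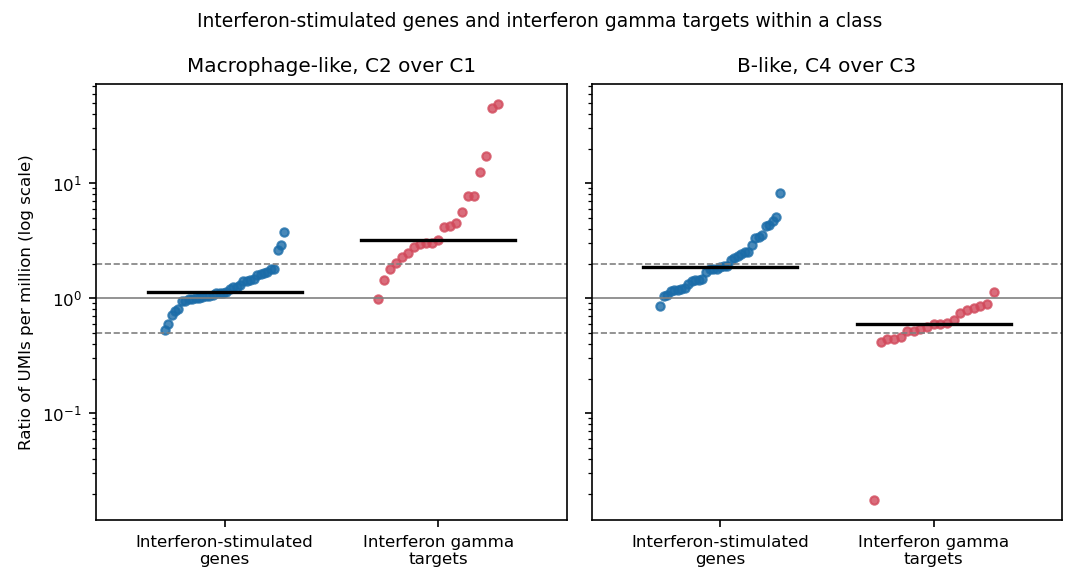
Each point is a gene with at least 50 UMIs in the higher library, ordered by its ratio of CPM (log scale) between 2 libraries within a class; black bars are medians and dashed lines mark 2-fold. In macrophage-like barcodes the members centre on 1.13 and the interferon gamma targets on 3.23, and in B-like barcodes the members centre on 1.85 and the targets on 0.593.

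Within the B-like class the members were low in cluster 19, whose leading genes include Rgs13 and Mef2b, known from germinal centre B cells. In C4 the members summed to 540.0 CPM (498 to 584) in cluster 19 and 2009.8 (1978 to 2042) in cluster 2, and the core to 13.9 (7.97 to 22.6) and 191 (181 to 201). Of 32 members with enough UMIs, 25 were at least 2-fold higher in cluster 2, against 19.0% of genes, with a median ratio of 4.19, counts of 0 set to 3. Samd9l was at 40.1 and 194 CPM in clusters 19 and 2, Bst2 at 12.2 and 72.1, and Ddx58 at 9.58 and 72.4. In C3 the sums were 748 CPM (716 to 780.5) and 1333 (1290.0 to 1378), and 10 of 19 members were at least 2-fold higher in cluster 2, against 10.6%. Of the interferon gamma targets 9 of 16 were at least 2-fold higher in cluster 2 of C4. Receptor genes differed as well in C4: Ifnar1 and Ifnar2, the chains of the type I interferon receptor, were at 16.5 and 7.84 CPM in cluster 19 and 44.5 and 57.0 in cluster 2. Of the interferon gamma receptor chains, Ifngr2 was at 13.9 and 75.9 CPM and Ifngr1 at 87.1 and 87.3. Median depth was 10461 UMIs in cluster 19 and 3879 in cluster 2 of C4.

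Monocyte-like barcodes, a single cluster whose leading genes also include Ccl22 and Ccl17 of dendritic cells, held the highest sums of the classes with gene-by-gene levels: 6751 (6595 to 6911), 8330.1 (8174 to 8489) and 6749 CPM (6618 to 6881) in C1, C2 and C3. Ifitm3 alone was at 2967, 3404 and 2389.6 CPM there, and Ifi27l2a at 1345, 1812 and 1700.5. The core of monocyte-like barcodes was at 481 (439.8 to 525), 785 (737 to 834) and 522 CPM (486 to 560.0) in C1, C2 and C3. This was below the macrophage-like core in C1 and above it in C2. Isg15 was at 157, 335 and 195 CPM, and Slfn5 at 209, 191 and 152. Against T-like barcodes 8 of 27 members were at least 2-fold higher in C1, against 11.0% of genes, and 15 of 30 in C2, against 9.61%. Endothelium-like barcodes, 57 in C1 that passed the CD45 sort, held 5129 CPM (4899 to 5366), with a core of 1102 (997 to 1214) and Rsad2 at 305 CPM.

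The ligands themselves were scarce. Over all kept barcodes the 20 type I and III interferon genes sought gave 124, 16, 4 and 1 UMIs in C1 to C4, none of them from an interferon alpha gene. Of these, 110 were Ifnb1, the interferon beta gene, in 46 of 2332 macrophage-like barcodes of C1 (1.97%), with 26 in a single barcode. In C2, 6 of 354 macrophage-like barcodes held 8 Ifnb1 UMIs, and no T-like, NK-like or B-like barcode held one in any library. The macrophage-like barcodes of C1 with Ifnb1 carried the core at 1165 CPM (1060.4 to 1276), against 552 (541 to 563) in those without, at median depths of 7383 and 6774 UMIs. In C2 the values were 509.7 (370.3 to 684) and 556 (533 to 579), so no difference in the core was detectable there, while all members summed to 5247 CPM (4775 to 5754) and 3729.7 (3670.3 to 3789.9). The C2 values rest on 6 barcodes with a median depth of 16168 UMIs, against 10138 in the rest.

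The response was uneven between barcodes of a class. With every barcode thinned to 2000 UMIs and shallower ones left out (16, 89, 186 and 73 in C1 to C4), 72.8%, 74.1%, 78.8% and 73.0% of T-like barcodes of C1 to C4 held no core UMI. At least 3 core UMIs were found in 7.11% (5.15 to 9.52%), 4.28% (3.60 to 5.04%), 1.92% (1.61 to 2.26%) and 3.37% (2.75 to 4.09%) of them in the same order of libraries. With each library clustered alone C4, at 3.49%, stood above C2, at 3.35%. In proportion, the share with several core UMIs differed more between libraries than the share with none, though not in percentage points. The variance of core UMIs over their mean, which is near 1 for random counts, was 5.47, 4.85, 2.28 and 3.79. The 10% of barcodes with the most core UMIs held 72.8%, 70.1%, 63.7% and 64.2% of all core UMIs in C1 to C4. With a minimum of 3 core UMIs, 9.54% of cluster 9, led by Il17a and Il17f, passed in C1 (6.66 to 13.1%) and 6.53% in C2 (4.38 to 9.30%), against 3.85% (1.56 to 7.76%) and 4.78% (up to 5.79%) of cluster 3, with overlapping intervals in both libraries.

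In B-like barcodes 0.834% held at least 3 core UMIs in C3 (0.307 to 1.81%) and 3.21% in C4 (2.47 to 4.09%), while those with none made up 85.0% and 82.0%. In NK-like barcodes the share with at least 3 was 1.87% in C1 (1.23 to 2.73%) and 4.03% in C2 (2.27 to 6.56%), and in macrophage-like barcodes 10.8% (9.54 to 12.1%) and 13.3% (9.95 to 17.3%). Core genes went together: in C4, 82.6% of B-like barcodes with Ifit3 (68.6 to 92.2%) held another core UMI, against 16.1% of those without (14.4 to 17.8%). In T-like barcodes of C4 these were 70.8% and 25.1%. Ifit3 in B-like barcodes of C4 gave the widest contrast, and others were narrower. In T-like barcodes of C3 the shares were 35.1% against 18.1% for Usp18 and 35.0% against 15.9% for Isg15. Ifi27l2a marked barcodes with core UMIs less sharply than Ifit3, with 25.9% against 9.47% in B-like barcodes of C4.

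**Figure D4:**
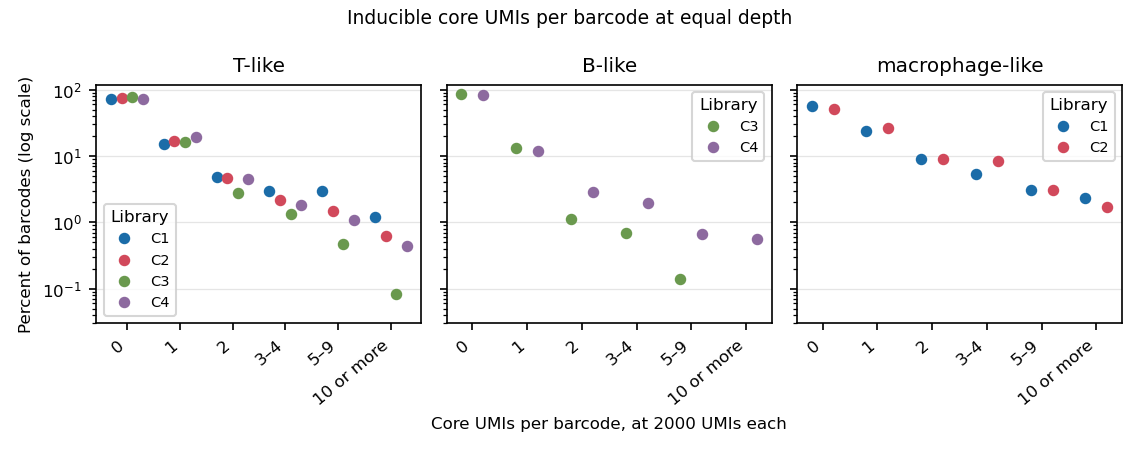
Points give the percent of barcodes (log scale) with 0, 1, 2, 3 to 4, 5 to 9 and 10 or more core UMIs after thinning to 2000 UMIs, for T-like, B-like and macrophage-like barcodes by library; a number held by no barcode has no point. On this log scale libraries of T-like and of B-like barcodes are close at 0 and 1 UMI and spread from 3 to 4 upward. In each of the 3 bins from there on T-like barcodes of C1 lie highest and those of C3 lowest.

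Members outside the core were also higher in T-like barcodes with at least 3 core UMIs than in those with none. Rtp4 was at 366 against 34.5 CPM in C1, 360.3 against 41.4 in C2, 248 against 33.8 in C3 and 332 against 31.3 in C4. The C1 values rest on 30 UMIs for Rtp4, 38 for Irf7 and 35 for Zbp1 in core-rich barcodes, fewer than the 50 asked of the other ratios. For Irf7 the ratios were 8.46, 6.55, 7.51 and 9.19, for Zbp1 6.18, 5.89, 4.61 and 5.83, and for Ifi27l2a 4.01, 3.23, 3.37 and 3.65. Of 416 genes outside the list with enough UMIs in at least 3 libraries, the 10 with the highest lowest ratio over the libraries included Ifi209, Ifi208, Rnf213, Ifi47, Slfn8, Ifi203, Mndal, H2-T22 and Samhd1. Ifi209 and Ifi208, of the DNA-sensing Ifi200 family, had lowest ratios of 3.58 and 3.51, and Samhd1, which depletes the nucleotides that retroviruses need, 1.65. These ratios describe the barcodes that were chosen and are no test.

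Macrophage markers stood beside this contrast. Their 8 genes summed to 268 CPM (168 to 406) in core-rich T-like barcodes of C1 against 129 (105 to 155) in those without core UMIs, 91.9 (59.5 to 136) against 25.3 (20.9 to 30.2) in C2 and 14.6 (3.98 to 37.4) against 3.20 (2.24 to 4.43) in C3, and in C4 they had no UMI in the core-rich barcodes. T cell markers were at 4951 against 5258 CPM in C1, 6184 against 6885 in C2, 4383 against 4065 in C3 and 4199 against 4347 in C4. Median doublet scores were 0.0270 against 0.0177 in C1 and lower in the core-rich barcodes of the other libraries, 0.0457 against 0.0603 in C2. The 6 monocyte markers, among them Ly6c2, which T cells also express, were at 854 against 724 CPM in C1, 757 against 301 in C2, 2551 against 2033 in C3 and 291 against 274 in C4. In B-like barcodes of C4 macrophage markers were at 246 (167 to 349) against 241 (224 to 259) CPM, and monocyte markers at 706 (567 to 869) against 234 (217 to 251). The part of macrophage and monocyte RNA in these values was not tested.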

How the data were processed

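Single-cell RNA was measured in 4 expression libraries. The deposited files hold raw UMI counts per gene and barcode, unfiltered. The submitters' processing notes name Cell Ranger 6.1.2, STAR 2.7.10a and mm10, while the file headers name Cell Ranger 4; the labels describe a BD Rhapsody kit, although the files have the Cell Ranger layout. The sources used here do not give how reads matching several genes were counted. The members and gene lists were chosen with earlier results of these data known.

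Barcodes under 500 UMIs or 300 genes, or above 10% mitochondrial UMIs, were left out. Counts were scaled to 10000 and logged, and 2000 variable genes, without 617 V, D and J genes and 106 interferon genes, gave 30 components, 15 neighbours and 27 Leiden clusters (resolution 1, seed 0, no integration) with scanpy 1.11.5 and leidenalg 0.10.2. A cluster was named from at least 3 detected markers of 1 type and a marker score of at least 0.5. It stayed unnamed if its leading genes held more markers of another type than of its own. Cluster 8, with 233 barcodes in C3 and 832 in C4, stayed unnamed in this way though it detected 7 T cell markers. T-like values therefore leave it out. Cluster 12, with 377 barcodes in C1 and 8 macrophage markers detected, also stayed unnamed. No doublets were removed, since Scrublet marked 0% of barcodes in C2 and 0.0234% in C3, beside 2.96% in C1 and 1.95% in C4. Total counts per library were 37902916 to 77819179 UMIs. CPM values are summed UMIs of a class, with exact Poisson intervals (scipy 1.17.1); shares have Clopper-Pearson intervals; a count of 0 has a floor of 3 counts per library. Ratios need 50 UMIs in the higher group. The ratio and thinning steps were tested on simulated data. With 1 library per group and none tied to a sample, no test between groups was run. All members are named in their role group, with full values for the member of highest median level and the member of widest range, and for classes the 4 members with the largest ratio each way; Psmb9, Gbp2, Cxcl9, Ifnb1 and the receptors fall outside that rule and were chosen after their values were seen, as were Rtp4 in core-rich barcodes and the members named for the B-like and cluster 19 comparisons. Alternatives changed the depth and mitochondrial filters, doublet scores, clustering, class naming, denominator, summation, Ifi27l2a and thinning depth. T cell receptor libraries were not analysed here. Some genes are not reported here.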

Additional observations from a re-analysis of the deposited data

How the results depend on the processing

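The order C1, C2, C4, C3 of the T-like member sums held in every alternative run for that sum. No named member's ratio between T-like libraries changed direction in the 112 comparisons made, of which 16 moved beyond their interval. An order outside those comparisons did change: without cluster 15, Ifitm3 was at 0.653 CPM in C3 and 2.77 in C4, against 9.49 and 4.11 with it. With the interferon genes allowed in the clustering, T-like sums were 2736 CPM in C1 and 2247 in C4. Clustering every library separately gave 3269, 2416 and 1812 for C1, C2 and C3, macrophage-like sums 3324 in C1 and 3666 in C2 and the B-like sum of C4 2006, while 10.9% and 3.35% of T-like barcodes in C1 and C2 held at least 3 core UMIs. With a class set per barcode, T-like sums were 2584 in C1 and 2129 in C4, macrophage-like 3269 and 3911 and NK-like 1117 and 1531. Without mitochondrial and salivary secretory genes in the denominator, they were 2739.9, 2581, 1639 and 2247 for T-like C1 to C4, 3289 and 3863 for macrophage-like, 1085 and 1521 for NK-like and 1906 for B-like C4. As a mean over barcodes they were 2735, 2590.2, 1751 and 2316 for T-like, 3276 and 3671 for macrophage-like and 1276 and 1987 for B-like barcodes. Without Ifi27l2a they were 1816, 1561, 1082 and 1367 for T-like, 2717 and 3042 for macrophage-like, 1042 and 1409 for NK-like and 721 and 1189 for B-like barcodes. Counting cluster 8 as T-like, a setting chosen after seeing the data, gave 2127 in C4. Leaving cluster 15 out, also chosen after seeing the data, gave 2607, 1577 and 2230.0 in C2, C3 and C4. Without the top 5% of doublet scores, sums were 3332 for macrophage-like C1, 1356 for NK-like C2 and 1031 for B-like C3, and 2 members in place of 5 were at least 2-fold higher in NK-like C2. The interferon gamma targets at least 2-fold lower in B-like C4 numbered 8 in that setting and 9 with libraries clustered separately, against 5. Thinned to 1000 UMIs, 3.40%, 1.94%, 0.662% and 1.65% of T-like barcodes in C1 to C4 held at least 3 core UMIs, and thinned to 4000 they were 10.9%, 9.46%, 4.43% and 7.03%. The members at least 2-fold higher in B-like C4 numbered 14 or 15 in each setting. The causes of these shifts were not tested. No paired analysis was possible because no library is tied to a sample and no test was run. Depth limits members with few UMIs, such as Ifi44, Oas2 and Rsad2 outside macrophage-like barcodes.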
